A study of Rattus norvegicus with 2 samples.

Results

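Spiral ganglion neurons carry the output of the cochlear hair cells to the brainstem. Here the neurons of the rat cochlear duct were studied at P1 and P7 (postnatal days 1 and 7). The study's methods take P1 as the day of birth. The neurons were chosen by measured counts, as the barcodes with at least 1 UMI for 4 or more of 6 neuronal genes. A UMI (unique molecular identifier) is 1 counted RNA molecule, and the genes were Stmn2, Stmn3, Snhg11, Tubb3, Nefl and Nefm. The rule was applied to barcodes with over 500 genes and under 25% mitochondrial UMIs, with no upper limit on genes. It chose 785 of 25826 barcodes kept, 655 of 13162 at P1 and 130 of 12664 at P7. These barcodes are called members, and since they were selected on the UMIs of the 6 genes, the levels of these genes are a description.

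The series holds 1 droplet library of single cells for each age, from cochleae of Sprague-Dawley rats. The labels give the cell type of both samples as greater epithelial ridge cell, the transient epithelium beside the hair cells, and the study's methods describe pooling tissue of many pups per age and separating the stria vascularis, spiral ligament and spiral ganglion during dissection. Tissue was dissociated with collagenase IV, papain and DNase I, so all cells of both ages share that treatment, and no genetic change or drug was involved. Age, dissection, dissociation and library cannot be told apart with 1 library per age, so no test was possible, and every interval below covers counting error only. Fewer neurons in the tissue and fewer neurons recovered from it cannot be told apart either.

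As background, spiral ganglion neurons are bipolar glutamatergic neurons whose somata lie in the central axis of the cochlea. Most are type I cells, which are myelinated by Schwann and satellite glia and contact inner hair cells, and a minority are unmyelinated type II cells that run to the outer hair cells. In the first postnatal week of rodents these neurons fire in bursts driven by the inner hair cells, prune their branches and begin to be myelinated.

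The members were deeper than the cells around them. The 14068 deposited barcodes of P1 held 114285848 UMIs, and the 14501 of P7 held 101264868. A P1 member held a median of 22046 UMIs and 4591 genes, against 6526 UMIs and 2156 genes in the other P1 barcodes. At P7 the members held 9549.5 UMIs, against 6889. Mitochondrial UMIs had a median of 11.2% in P1 members and 6.69% in the other P1 barcodes, and of 9.21% and 8.50% at P7. The libraries shared 60 barcode sequences, and none was a member in both. Doublet calls with Scrublet marked 65 members at P1 (9.92%, against 4.85% of all P1 barcodes kept). At P7 they marked 11 members (8.46%, against 6.14% of all P7 barcodes kept), and all of these were kept.

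The promoters of 3 genes enriched in the P1 members are shown because each holds TTCAGCACC, the left arm of the RE1 element. The whole element is the site read by the repressor REST, which keeps neuronal genes silent in other cells. Only the left arm was searched for, so whether these promoters hold a whole element was not tested. The sequences are the 250 bases before the RefSeq transcription start in assembly GRCr8, 5′ to 3′ on the strand of the gene. The capitals mark the left arm, which lies on the opposite strand and reads GGTGCTGAA here. Elavl4 encodes a neuronal RNA-binding protein, Scg2 a secretory granule protein and Sez6l2 a neuronal membrane protein. They held 276, 37.4 and 90.2 CPM (UMIs per 1e6 UMIs) in the P1 members and 2.51, 0.449 and 2.48 CPM in the other P1 barcodes. Scg2 was uneven, at 867 CPM in cluster 8 of the P1 members, described below, and 21.2 CPM in the rest of the members. Of the 238 Scg2 UMIs in that cluster, 107 came from 1 of its 12 barcodes.
Elavl4, chr5:130367664-130367913, minus strand: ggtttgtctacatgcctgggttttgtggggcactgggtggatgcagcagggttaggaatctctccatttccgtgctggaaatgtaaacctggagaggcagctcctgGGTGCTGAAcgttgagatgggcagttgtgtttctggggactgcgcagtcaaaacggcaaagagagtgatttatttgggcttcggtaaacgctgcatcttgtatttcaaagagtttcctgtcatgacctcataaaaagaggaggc
Scg2, chr9:88256867-88257116, minus strand: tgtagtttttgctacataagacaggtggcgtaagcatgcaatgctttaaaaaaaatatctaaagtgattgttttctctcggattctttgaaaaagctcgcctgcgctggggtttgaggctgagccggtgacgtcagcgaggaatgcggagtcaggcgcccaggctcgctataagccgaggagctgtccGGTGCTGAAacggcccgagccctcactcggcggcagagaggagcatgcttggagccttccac
Sez6l2, chr1:190987397-190987646, plus strand: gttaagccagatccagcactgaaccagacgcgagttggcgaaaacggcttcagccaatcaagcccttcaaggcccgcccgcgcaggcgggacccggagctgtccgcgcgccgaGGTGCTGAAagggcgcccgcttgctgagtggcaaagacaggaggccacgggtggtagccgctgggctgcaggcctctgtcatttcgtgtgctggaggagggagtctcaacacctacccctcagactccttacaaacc
The left arm stood 144 bases before the start in Elavl4, 62 in Scg2 and 137 in Sez6l2. On both strands, 102 of 33469 windows of all genes held TTCAGCACC (0.305%). Of the 473 genes enriched in P1 members, 342 had a window (72.3%). That is under the 80% needed for a comparison over the set, so the comparison is void, and the 5 of 374 windows of these genes that held the left arm are a description. The E-box CAGATG stood in 45 of those 374 windows and 4673 of all, AGATAA, read by GATA factors, in 16 and 3447, and ATAATTAAT, read by Brn3 factors, in 0 and 88. Among 8358 windows of genes with at least 50 UMIs in P1 members, they stood in 731, 438 and 9, and TTCAGCACC in 26. All of these counts are a description.

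The neuronal barcodes were common at P1 and scarce at P7. Members made up 4.98% of the barcodes kept at P1 (exact 95% interval 4.61 to 5.36) and 1.03% at P7 (0.858 to 1.22), a log2 ratio of shares of -2.28 (-2.56 to -2.00). The gap widened with the strictness of the rule: all 6 genes were seen in 498 barcodes at P1 (3.78%) and 9 at P7 (0.0711%, 0.0325 to 0.135), a log2 ratio of -5.73 (-6.87 to -4.80). The ratio was -1.18 among barcodes under 10% mitochondrial UMIs and -4.26 without the members that held glial genes. Members held 12.8% of all UMIs kept at P1 and 1.51% at P7.

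The ages also differed in how much neuronal RNA a member held. The summed UMIs of the 6 genes had a median of 224 per member at P1 (range 4 to 1137) and of 8 at P7 (range 4 to 509). The members of P1 were deeper, and scaled to depth the medians were 10010 and 1099 CPM. At least 100 such UMIs were held by 477 members at P1, 3.62% of barcodes kept (3.31 to 3.96), and by 1 at P7, 0.00790% (0.000200 to 0.0440). That 1 barcode held 509 of the 2369 UMIs of the 6 genes in P7 members (21.5%), and the next highest held 86. Scaled to depth it was at 12474 CPM, but a shallow P7 member with 12 such UMIs among 1024 in all was at 11719 CPM. The ranked plot of these UMIs shows a plateau of P1 barcodes above 100 UMIs and a single P7 barcode at that height.

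**Figure D1:**
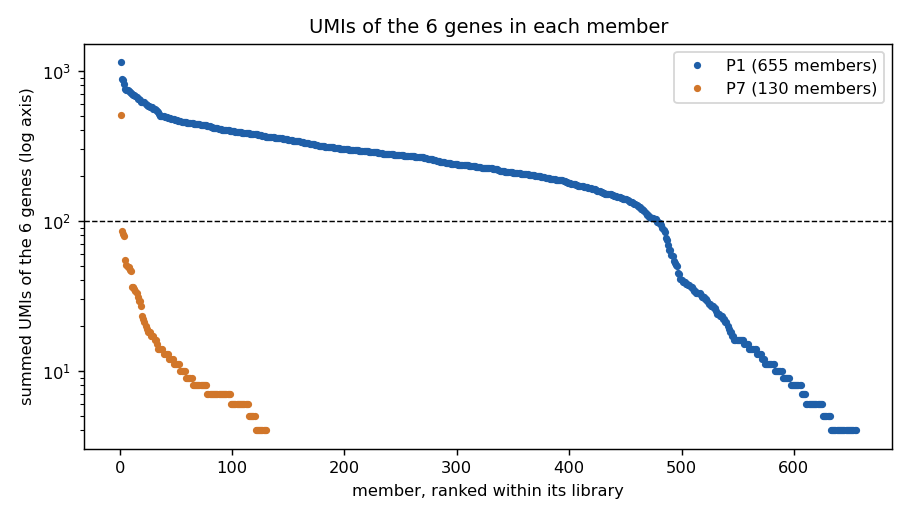
Each point is 1 member, ranked within its library on the horizontal axis, with the summed UMIs of the 6 rule genes on a log vertical axis. The dashed line marks 100 UMIs, which 477 of 655 members at P1 and 1 of 130 at P7 reached.

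Just inside and just outside the rule the P1 barcodes held little neuronal RNA. The 104 barcodes with 4 of the 6 genes held 329 CPM of Stmn2 and 20.9 CPM of Snap25, the vesicle fusion protein, and the 294 with 3 genes held 105 and 7.92 CPM. Those with all 6 genes held 3365 and 361 CPM. At P7 the 77 barcodes with 4 genes held 141 CPM of Stmn2 and 81.4 of Snap25, and the 84 with 3 genes held 112 and 53.2 CPM.

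At P7 most members held little of the RNA that marked neurons at P1, and much glial RNA. The label of neurons is in doubt for them. A set of 86 genes, at least 16-fold higher in the spiral ganglion neuron-like clusters of P1 described below than in the other P1 barcodes, was summed as neuronal RNA. It was chosen at P1, so those clusters score high by that choice, and genes that only P7 neurons use are not counted. It holds the 6 rule genes, on which the members and the single P7 barcode were picked, so the 80 genes outside the rule were also summed, a choice made after seeing the data. All 86 took 5.45% of UMIs in those P1 clusters, 5.24% in the single P7 barcode, 0.640% in the other 129 P7 members and 0.109% in P7 barcodes outside the rule. The 80 took 4.26% in the P1 clusters, with 2.67% in the lowest cell, 3.99% in the single P7 barcode, 0.508% in the other 129 and 0.106% in P7 barcodes outside the rule. Among those 129 the median was 0.43%, and 5 were at or above the lowest P1 cell, with 699 to 6262 UMIs each, so the single barcode was not alone in its share of neuronal RNA. The summed level of 9 glial genes was 5686 CPM in the single P7 barcode and 14852 CPM in the other 129, whereas its median per cell was 2004 CPM in the spiral ganglion neuron-like cells of P1. P7 levels are given with and without the single barcode where leaving it out moved them by over 1.5 times.

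The 6 genes of the rule were far above the other cells in P1 members. Stmn2, a tubulin-binding protein of growing axons, was at 3067 CPM (3038 to 3095) in P1 members and 29.4 in other P1 barcodes. Stmn3, its relative, was at 1878 and 16.6 CPM. Tubb3, the neuronal beta-tubulin, was at 1461 and 11.8 CPM, and Snhg11, a long noncoding RNA enriched in neurons, at 1433 and 9.92. The neurofilament subunits Nefm and Nefl, which set axon calibre, were at 1883 and 737 CPM. In P7 members Stmn2 was at 314 CPM (286 to 344), Stmn3 at 429, Tubb3 at 288, Snhg11 at 58.6, Nefm at 339 and Nefl at 206. Without the single barcode the P7 values were 236, 342, 239, 21.3, 300 and 181 CPM, so Snhg11 depended on that barcode more than the others did.

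The P1 members carried the transcription factors and transmitter genes of the spiral ganglion. Gata3, required for the ganglion to form and to keep its cells, was at 238 CPM (231 to 247) in P1 members and 19.1 in the other P1 barcodes. Shox2, a homeodomain factor, was at 294 and 2.08, and Isl1, a LIM-homeodomain factor of sensory neurons, at 359 and 7.02. Prox1, a homeodomain factor of developing spiral ganglion neurons, was at 44.1 CPM (40.7 to 47.6) and 1.28. Pou4f1, a Brn3 factor of sensory neurons, was near 0 at 1.12 CPM from 16 UMIs.
The vesicular glutamate transporters Slc17a7 and Slc17a6 were at 124 and 36.4 CPM in P1 members. The neurotrophin receptors Ntrk2, which binds BDNF, and Ntrk3, which binds NT-3, were at 201 and 67.8 CPM, against 51.0 and 17.9 in the other barcodes. Pvalb, a calcium buffer, was at 1390 and 13.5 CPM, and Spp1, the secreted phosphoprotein osteopontin, at 3584 in members. Both are on the list of vestibular ganglion genes, and only Pvalb is on the spiral ganglion list as well. Of 10067 genes with enough UMIs, 473 (4.70%) were at least 2 higher on the log2 scale of CPM plus 5 in P1 members than in the other P1 barcodes. Beside that background, 17 of 18 pan-neuronal genes and 8 of 11 measured spiral ganglion genes were past that limit, with medians of 4.75 for the pan-neuronal list and 0.03 for all genes. Both lists define the cells, so these counts check the label and are no test.

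Other enriched genes at P1 were outside every list. Ttc9b, a tetratricopeptide protein found mainly in brain, was at 538 CPM against 5.32 in the other barcodes, a log2 difference of 5.72. Eef1a2, the neuron and muscle form of the elongation factor, was at 351 CPM (5.42), and Mllt11, a small protein of young neurons, at 666 (5.05). Cend1, which promotes exit from the cell cycle, was at 212 CPM and Rbfox1, a splicing regulator, at 183. Atp2b2, a plasma membrane calcium pump, was at 142 CPM against 2.01.

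Shares of barcodes with a UMI were compared after each barcode was thinned to 3000 UMIs. Stmn2 was then seen in 92.2% of 638 P1 members, 9.23% of other P1 barcodes and 7.09% of macrophage barcodes, which should lack it. Macrophage barcodes were chosen with fewer than 2 of the 6 rule genes, and the other barcodes held fewer than 4. Their shares of Stmn2, a rule gene, are held down by that choice. Unthinned, the Stmn2 shares were 97.6% in members and 14.7% in 150 macrophage barcodes, whose median depth was 7736 UMIs. Pvalb was seen in 78.7% of P1 members, 97.7% of the spiral ganglion neuron-like cells and 2.84% of macrophage barcodes. Isl1 was seen in 51.7% of members, Slc17a7 in 29.6% and Prox1 in 14.1%, and in 0 of 141 macrophage barcodes for each, which, by a floor of 3 counts, allows a share of up to 2.13%.
At P7, thinned, Stmn2 was seen in 48.8% of 125 members, Pvalb in 60.0%, Nefh, the heavy neurofilament, in 48.8%, Isl1 in 10.4% and Slc17a7 in 2.40%. The macrophage barcodes of P7, with a median of 7670 UMIs, held Pvalb in 2.27%. They held Stmn2 in 0 of 176, which by counting alone allows up to 1.70%, but their limit on rule genes applies there too. Snhg11 was seen in 79.6% of P1 members and 6.40% of P7 members.

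The 655 P1 members fell into 9 clusters and the 130 P7 members into 5. The genes of the cell type lists, mitochondrial genes and genes with haemoglobin symbols were left out when the clusters were formed. Other genes helped to form the clusters, and the list genes named them, so the levels of both are descriptions. At P1, clusters 0, 3 and 7 met the spiral ganglion neuron markers and held 318 members (48.5%, 44.7 to 52.5). Cluster 5, with 34 members (5.19%), met those of type II neurons, cluster 8, with 12 (1.83%), those of somatic and visceral sensory neurons, and cluster 6, with 13 (1.98%), those of hair cells. The other 3 were left unnamed. Cluster 2 (70 members) was neuronal with genes of dividing cells, cluster 4 (124) was neuronal with mesenchymal genes such as Otor at 3172 CPM, and cluster 1 (84) held glial genes such as Ednrb. Macrophage genes also led cluster 1, but 1 of its 84 barcodes held 88 of 88 C1qb UMIs and 56 of 56 C1qa UMIs. The heat map of marker levels shows Stmn2 and Tubb3 high in clusters 0, 2, 3, 4, 5, 7 and 8 of P1 and low in 4 of the 5 P7 clusters. Spiral ganglion genes were not high in all of these P1 clusters. As log2 ratios of cluster 8 to cluster 0, Gata3 was at -6.60, Shox2 at -4.83 and Pvalb at -4.06.

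**Figure D2:**
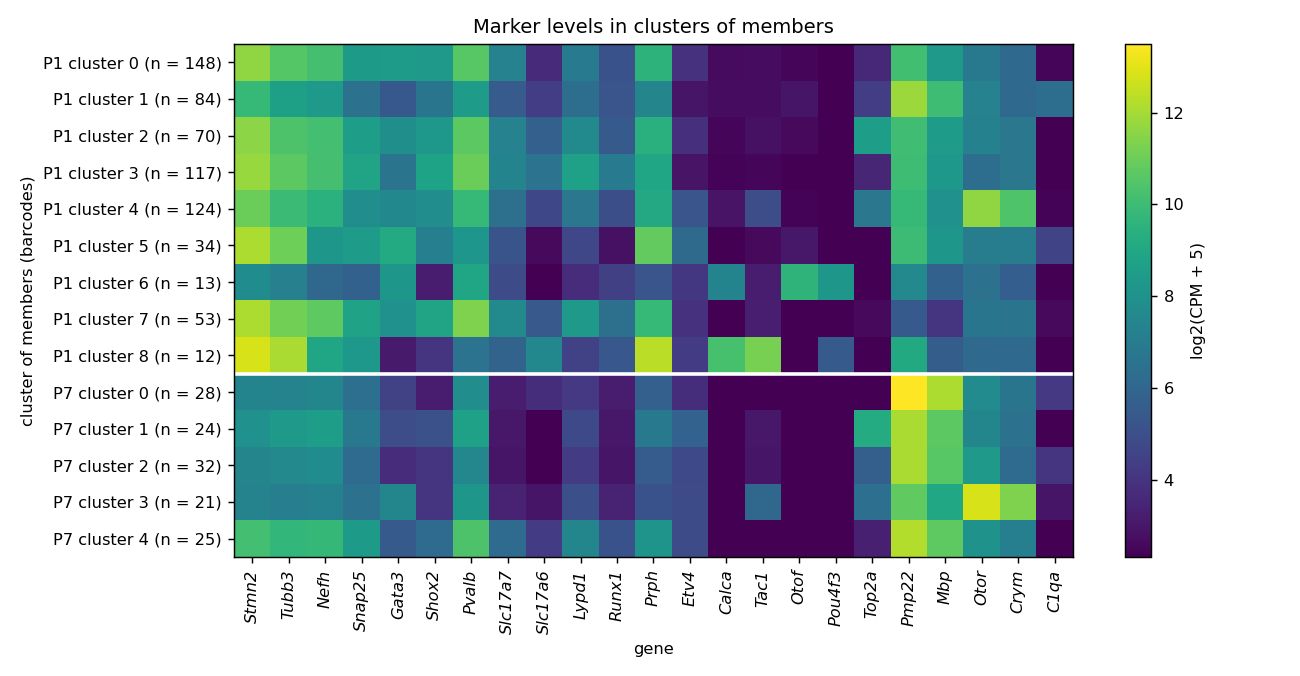
Each row is a cluster of members (9 at P1 above the white line, 5 at P7 below it), each column a marker gene, and the colour gives log2 of CPM plus 5. P1 clusters 0, 3 and 7 share high Stmn2, Pvalb and Slc17a7, cluster 8 is high in Tac1 (2333 CPM), and P7 clusters 0 to 3 hold 156 to 245 CPM of Stmn2.

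Within the spiral ganglion neuron-like cells, clusters 0 and 3 differed in factors tied to type I subtypes. Gata3 was at 353 CPM in cluster 0, 93.7 in cluster 3 and 244 in cluster 7. Lypd1, a modulator of nicotinic receptors that marks one type I subtype in mice, was at 112, 410 and 322 CPM in the same order. Runx1, a transcription factor of type I subtypes, was at 30.1, 113 and 83.0 CPM. Slc17a6 was at 7.46, 90.7 and 38.1 CPM, whereas Slc17a7 was at 150, 161 and 191.
As log2 ratios of cluster 3 to cluster 0, Gata3 was at -1.91 (-2.11 to -1.72), Lypd1 at 1.87 (1.71 to 2.04), Runx1 at 1.91 (1.60 to 2.23) and Slc17a6 at 3.60 (3.04 to 4.21). Slc17a7 was at 0.10 (-0.09 to 0.28), and its interval held 0. Calb2, the mark of another type I subtype in mice, was near 0 in all 3 clusters, at 0.515, 0.377 and 1.12 CPM. Calb1, a calcium buffer, was at 24.7 CPM in cluster 0, 4.89 in cluster 3 and 22.4 in cluster 7.
The genes that led cluster 3 included Pyy, a gut and neuronal peptide, at 270 CPM and in 106 of its 117 barcodes, Ppp1r14a, a phosphatase inhibitor, at 372 CPM, and Cacna2d3, a calcium channel subunit, at 95.2 CPM. Cluster 0 was led by Cacna1h, a low-threshold calcium channel, at 83.4 CPM, and by Tle4, a corepressor, at 221 CPM. Cluster 7 had shallower cells, with a median of 18608 UMIs.

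The type II-like cluster 5 stood apart from the type I-like clusters in the genes of the marker list that had named it. Prph, the peripheral intermediate filament of type II neurons, was at 1793 CPM in cluster 5 and 749 in cluster 0, a log2 ratio of 1.26. Etv4, an ETS factor, was at 66.9 and 10.0 CPM, a ratio of 2.74 (2.14 to 3.35). Th, the rate-limiting enzyme of dopamine synthesis and a mark of mature type II cells, was at 10.6 CPM. Pvalb was at 292 CPM against 1522 (-2.38), Nefh at 294 against 1169 (-1.99), Slc17a7 at 31.9 against 150 (-2.24) and Prox1 at 3.19 against 47.3 (-3.89).
Gata3, which is not on the type II list, was higher in cluster 5, at 567 CPM against 353. Stmn2 was at 4399 against 3198. Ramp3, a receptor activity-modifying protein, was at 347 CPM and in 34 of 34 barcodes of cluster 5, and Gldn, a node of Ranvier protein, at 116 CPM in 29. Lyz2 and Cd74 also led this cluster, but 128 of its 129 Lyz2 UMIs and 22 of 22 Cd74 UMIs came from 1 barcode each.

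Cluster 8 was low in Gata3, Prox1 and Shox2 and carried sensory peptides. Gata3 was at 3.64 CPM there, Prox1 at 0 and Shox2 at 10.9, against 353, 47.3 and 312 in cluster 0. Isl1 was at 139 CPM against 437 (-1.66), Slc17a6 was higher at 182 against 7.46 (4.61), and Neurod1, a proneural factor, had a ratio of 1.05 (-0.34 to 2.20), whose interval held 0. P2rx3, an ATP-gated channel of nociceptors and cochlear afferents, was at 456 CPM against 97.2, and Prph at 5172 against 749. Tac1, the substance P precursor, was at 2333 CPM and seen in 10 of 12 barcodes, of which the highest held 43.3% of the UMIs. Calca, the CGRP precursor, was at 1225 CPM and seen in 6 of 12, with 69.0% in the highest. Of the other neuron classes, the summed level of 13 autonomic genes was 16.2 CPM in P1 members and that of 5 central inhibitory genes was 1.61, with Dbh, Chat, Hand2 and Slc32a1 at 0. The summed level of 4 vestibular ganglion genes was 4980 CPM in P1 members and 285 in the other P1 barcodes. That list holds Spp1 and Pvalb, and Pvalb is on the spiral ganglion list too. The share of vestibular neurons among the members was not tested.
The plot of levels in the 5 neuronal clusters shows cluster 5 high in Gata3 and Etv4 and cluster 8 low in Gata3, Prox1 and Shox2.

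**Figure D3:**
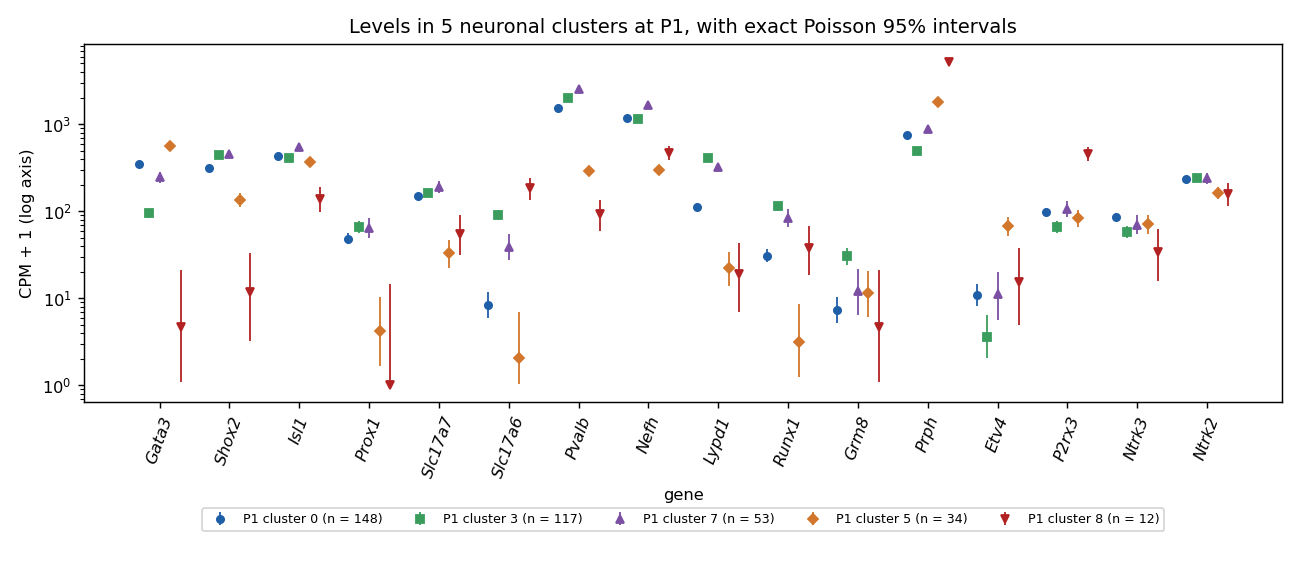
Points give the level of each gene on a log axis of CPM plus 1 in 5 neuronal clusters of P1, and bars are exact Poisson 95% intervals. Cluster 3 is low in Gata3 (93.7 CPM) and high in Lypd1 (410 CPM) and Slc17a6 (90.7 CPM), cluster 5 is high in Prph (1793 CPM), and cluster 8 is high in Prph (5172 CPM) and P2rx3 (456 CPM).

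At P7, 4 of the 5 clusters were led by genes of other cells. Cluster 0 (28 members) held 11562 CPM of Pmp22, a myelin protein, cluster 1 (24) was led by genes of dividing cells, cluster 2 (32) by genes of immature glia and cluster 3 (21) by mesenchymal genes, with Otor at 7227 CPM. Haemoglobin genes also led cluster 1, but 1 barcode held nearly all of their UMIs, for example 166 of 170 for Hbb. Cluster 4 (25 members) met the same marker rule as the spiral ganglion clusters of P1, with Stmn2 at 1150 CPM and Pvalb at 1331, beside Pmp22 at 4781. The single barcode lay in it and held 48.4% of its UMIs of the 6 genes. Of the cluster's leading genes it held 55 of 62 Snhg11 UMIs, 94 of 118 Rtn1 UMIs and 28 of 33 Scg5 UMIs. Its other 24 barcodes held 1.56% neuronal RNA.

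The single P7 barcode was picked on the 6 rule genes, so its levels of these genes are a description. It held 40804 UMIs and 5923 genes. Stmn2, a rule gene, was at 2990 CPM there (2483 to 3570), against a median of 3415 over the 318 spiral ganglion neuron-like cells of P1, 5% of which lay under 1855. Snap25 was at 539 CPM (338 to 816) against a median of 371, Isl1 at 441 (261 to 697) against 420, and Slc17a7 at 245 (118 to 451) against 138. Pvalb was at 2916 CPM (2416 to 3490), above 279 of the 318 cells, and Spp1 at 2451 (1994 to 2981), above 47 of them. Gata3, from 2 UMIs, was at 49.0 CPM (5.94 to 177), and Prox1 and Calb1 were at 0 with an exact Poisson upper bound of 90.4 CPM.

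To compare the make-up of the neuronal RNA apart from its amount, each of the 80 neuronal genes outside the rule was expressed as its share of their summed UMIs and compared with the 318 P1 cells as a log2 ratio. The genes were chosen for being high at P1, so their sum is fixed by that choice and only the make-up is read here. In the single P7 barcode, with 1630 such UMIs, the interval lay above 0 for 11 genes, below 0 for 6, and held 0 for 63. Spp1 (-0.83, -1.13 to -0.55), Map1b, a microtubule-associated protein of growing axons (-1.19, -1.57 to -0.83), and Scn9a, a peripheral sodium channel (-1.74, -4.02 to -0.19), were lower. Pvalb (0.76, 0.49 to 1.02), Rab3a, a vesicle GTPase (0.87), and Sncb, beta-synuclein (1.28), were higher. With 1 barcode no spread between P7 neurons could be measured.

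In the other 129 P7 members, with 7158 such UMIs, the interval lay above 0 for 16 genes, below 0 for 37, and held 0 for 27. These counts rest on more UMIs than those of the single barcode, so the counts are not compared. Dcx, a microtubule protein of young neurons (-3.74, from 3 UMIs), Rtn1, a reticulon of the endoplasmic reticulum (-1.99, -2.29 to -1.71), Spp1 (-1.84) and the granule protein Chga (-1.73) had lower shares. Higher shares were seen for Sncg, gamma-synuclein (1.18), Snap25 (1.23), Ndrg4, a cytosolic protein of neurons (1.52), and Nefh (1.05). In the single barcode Nefh had a lower share (-0.75, -1.34 to -0.21) and Ndrg4 a higher one (0.93), and the intervals of Sncg and Snap25 held 0. These genes were named after their values were seen. With the 6 rule genes kept in, the counts were 12 above, 7 below and 67 with 0 inside for the single barcode, and 21, 38 and 27 for the other 129.
The 178 P1 members with under 100 UMIs of the 6 genes were compared in the same way. Their interval lay above 0 for 13 genes, below 0 for 20, and held 0 for 47, with Spp1 at -0.01, Rtn1 at -0.29 and Nefh at -0.07. In P1 barcodes outside the rule the 80 genes took 0.110% of UMIs, and Spp1 had a ratio of 1.01, Rtn1 of -0.22 and Nefh of -1.97 to the same cells. Between the barcodes outside the rule, P7 against P1, Sncg was at 1.37, Nefh at -0.84, Chga at -2.16 and Dcx at -2.83. The part of free RNA and of neuronal fragments in the P7 members was not tested.

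**Figure D4:**
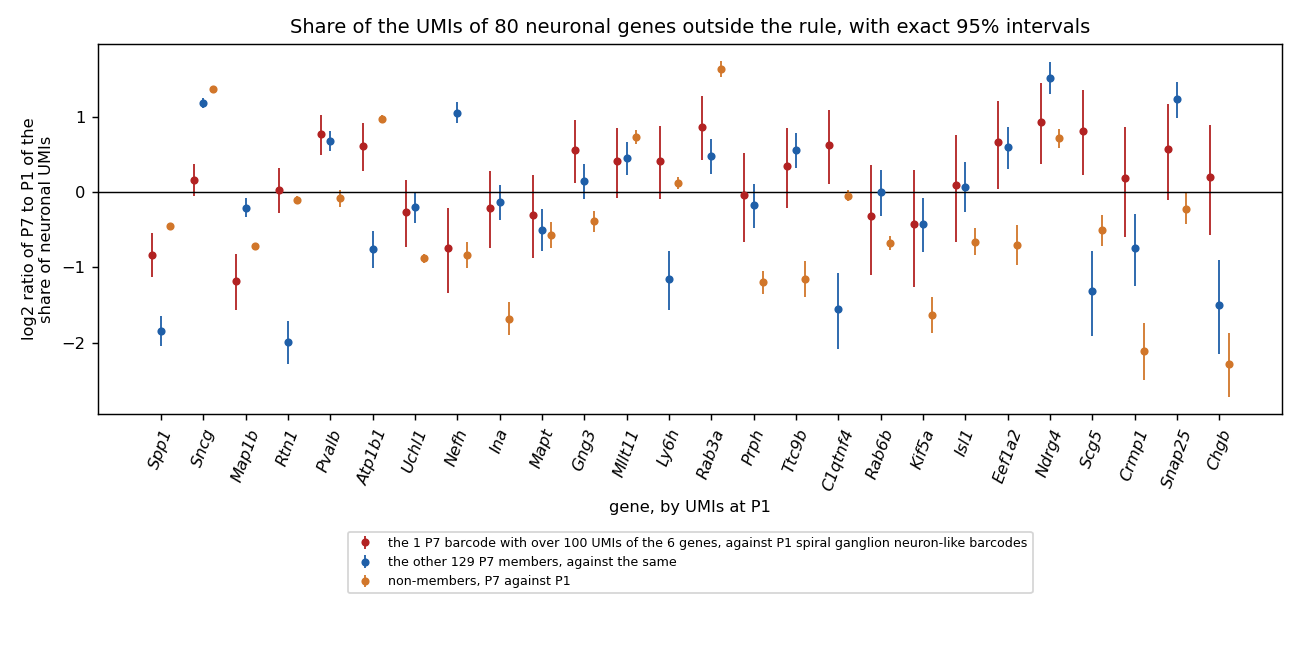
For the 26 neuronal genes outside the rule with the most UMIs at P1, points give the log2 ratio of a gene's share of the UMIs of the 80 genes, with exact 95% intervals. For the single P7 barcode (red) Spp1 lies at -0.83 and Sncg at 0.16, for the other 129 P7 members (blue) Rtn1 lies at -1.99 and Sncg at 1.18, and barcodes outside the rule (orange) compare P7 with P1.

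With all members summed per library, P7 was set against P1 gene by gene on the log2 scale of CPM plus 5. Of 10382 genes with at least 50 UMIs, 1239 were higher (11.9%) and 1452 lower (14.0%) at P7 by at least 1, with a median of -0.03. Against that background, all 18 pan-neuronal genes and all 11 measured spiral ganglion genes were lower, with medians of -2.42 and -2.35, and all 9 glial genes were higher, with a median of 2.42. Pmp22 was at 1075 CPM in P1 members and 4861 in P7 members. With members holding glial UMIs removed, Mbp, another myelin gene, turned to the lower side at -1.65. The summed level of the glial list was 2488 CPM in P1 members and 2034 in other P1 barcodes, and 14594 and 7212 CPM at P7. At least 4 of 6 glial genes were seen in 377 P1 members (57.6%) and 116 P7 members (89.2%). Mesenchymal genes (7 of 8 higher, median 1.64) and genes of dividing cells (5 of 5, 1.19) were higher as well. The macrophage list summed to 31.6 CPM in P1 members and 29.0 in P7 members. The functional lists below are read beside these values, and the part of glial and mesenchymal RNA in them was not tested.

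The cytoskeleton of axons was lower in P7 members in its neuronal parts. Among microtubule proteins and motors, 21 of 25 measured genes were lower and none higher (median -2.07, without the single barcode -2.19). Map1b was at 3198 CPM in P1 members and 412 in P7 members, Mapt, the axonal tau, at 781 and 96.6, and Kif5a, a kinesin of axonal transport, at 447 and 55.9. Of 7 intermediate filaments 5 were lower, Ina, alpha-internexin, from 858 to 132 CPM and Nefh from 970 to 315. The other 2 were Vim, the filament of glia and mesenchyme, at 2851 and 6955 CPM, and Nes, of progenitors, at 22.3 and 52.4. Of 11 tubulins 5 were lower and 2 higher, Tubb6 and Tuba1c, which other cells use. Of 10 growth cone genes 4 were lower, among them Gap43, the growth-associated protein, at 610 and 169 CPM, and Rtn1 at 2164 and 135, or 72.4 without the single barcode.

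Axon guidance and neuron to glia signals were mixed at the first and mostly lower at the second. Among 34 measured guidance and adhesion genes 19 were lower and 4 higher (median -1.08). Epha4, an ephrin receptor that steers type I fibres, was at 172 CPM at P1 and 31.7 at P7, Robo2, a Slit receptor, at 110 and 17.9, and Sema3e, a repellent, at 69.0 and 9.66. Of 17 neuron to glia and node genes 12 were lower and 1 higher. Nrg1, the axonal signal that drives Schwann cells to myelinate, was at 56.9 CPM against 0.684 in other P1 barcodes, and at 1.38 CPM in P7 members. Ank2, a membrane anchor of axons, was at 361 and 37.2. The higher gene was Jag1, a Notch ligand, at 14.5 and 104 CPM, with none of its UMIs in the single barcode.

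The machinery of vesicle release was broadly present at P1. Of 34 measured genes 30 were lower at P7 and 1 higher (median -1.64, without the single barcode -1.80), and 23 of the 34 were enriched in P1 members. Rab3a was at 567 CPM in P1 members and 9.54 in the other P1 barcodes, Snap25 at 327 and 4.38, Cplx1, a complexin, at 267 and 2.95, and Sv2a, a vesicle glycoprotein, at 170 and 7.26. In P7 members these were at 144, 121, 72.4 and 14.5 CPM. In the spiral ganglion neuron-like clusters alone, with each cell weighted equally, Snap25 was at a log2 ratio of 0.19, Nefh at 0.15 and Slc17a6 at 1.34. Their direction turned under that weighting, in which a single UMI of a shallow cell weighs heavily. With the UMIs of these clusters pooled, none of them turned. At P7 this was cluster 4, with 25 members and a median of 7273 UMIs. Slc17a7 was at 13.1 CPM at P7, and at 6.39 without the single barcode.

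Receptors for glutamate were detected in P1 members and were lower or sparse in P7 members. Of 14 measured ionotropic glutamate receptor genes 7 were lower and 1 higher (median without the single barcode -1.03). Gria2, the AMPA receptor subunit that limits calcium entry, was at 59.2 CPM in P1 members and 2.76 in P7 members, or 1.42 without the single barcode. Grin1, the obligatory NMDA receptor subunit, was at 55.0 CPM, against 0.521 in other P1 barcodes, and at 4.83 in P7 members, or 2.84 without the single barcode. Cacng2, stargazin, which carries AMPA receptors to the membrane, was at 52.1 and 6.21 CPM. Grin2b, another NMDA subunit, was at 13.5 and 57.9 CPM, with no UMI in the single barcode. Of 8 genes for GABA, glycine and acetylcholine receptors 5 were lower. Gabbr2, a GABA-B receptor subunit, was at 86.9 CPM in P1 members against 1.03 in the others and at 4.14 at P7.

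Ion channels of excitability were mostly lower in P7 members. Sodium channels were lower in 6 of 8 (median -2.22, without the single barcode -2.59), potassium and HCN channels in 13 of 20 (-1.64) and calcium channels in 11 of 12 (-2.02). None of these lists had a higher gene. Scn9a was at 220 CPM in P1 members and 19.3 in P7 members, and Scn1a, another pore subunit, at 54.2 and 6.21, or 3.55 without the single barcode. Kcna6, a low-threshold potassium channel, was at 60.5 CPM in P1 members, against 1.80 in other P1 barcodes, and at 4.14 at P7, or 2.13 without that barcode. Kcnc1, a fast-deactivating potassium channel, was at 57.9 and 4.83. Cacnb4, a calcium channel beta subunit, was at 84.0 and 6.90.
P2rx3 was at 79.1 CPM at P1 and 2.07 at P7, where 3 UMIs were counted, and of the 4 measured purinergic genes it was the 1 lower. P2rx4 and P2ry1 were higher, at 51.7 and 13.8 CPM from 8.52 and 3.63. Of 8 sodium pump and chloride transporter genes 2 were lower and 2 higher. Atp1b1, a beta subunit of the pump, was at 1173 and 157 CPM, or 101 at P7 without the single barcode. Slc12a2, a chloride importer, was higher, at 148 CPM from 41.3.

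Neurotrophic and calcium-binding genes were lower or between, whereas cell death genes lay near the background of all genes. Of 10 neurotrophic genes 6 were lower and none higher, Ntrk2 from 201 to 35.2 CPM, Ntrk3 from 67.8 to 23.5 and Ngfr, the shared neurotrophin receptor, from 90.4 to 8.28. Of 16 cell death and survival genes 1 was lower and 3 higher, with a median of 0.03. Over all measured genes 14.0% were lower and 11.9% higher, with a median of -0.03, so no change is read for this list. Bax, which opens the mitochondrial membrane in apoptosis, was at 150 CPM in P1 members and 226 in P7 members, short of the fold. Of 16 calcium-binding genes 9 were lower and none higher, Pvalb from 1390 to 421 CPM and Ncs1, a neuronal calcium sensor, from 141 to 23.5.

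Of 16 secretory granule genes 14 were lower and none higher, with a median of -2.48, the lowest of the functional lists. Without the single barcode it was -2.50, and that of the sodium channels, -2.59, was lower. Chga and Chgb, the chromogranins, were at 293 and 319 CPM in P1 members and 27.6 each in P7 members, and without the single barcode at 13.5 and 16.3. Scg5, a chaperone of a prohormone convertase, was at 355 and 38.6 CPM, or 19.9 at P7 without it. Of 30 transcription factors 15 were lower and 4 higher (median -1.06). Esrrg, an orphan nuclear receptor, was at 137 CPM in P1 members against 2.26 in the others, and at 22.1 in P7 members, or 14.2 without the single barcode. Gata3 was at 58.6 CPM at P7, Isl1 at 66.2 (55.4 without that barcode), Shox2 at 22.1 (15.6) and Prox1 at 2.07 from 3 UMIs. The factors that were higher included Sox2, of glia and supporting cells, at 83.7 and 214 CPM, and Lmo4, at 525 and 1193. The proneural factors Neurog1 and Neurog2 were at 0 in the members of both ages.

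In all, 16 of 19 functional lists had a median below that of all genes, and the same number did without the single barcode. The lists overlap in genes and were chosen with neurons in mind. Of the 475 genes enriched in members of either library, 473 were enriched at P1 and so were chosen for being high there. The counts that follow are therefore a description. Of the 475, 445 were lower at P7, 28 lay between, and 2, enriched at P7 alone, were higher. These 2 were Pnlip, a pancreatic lipase, at 130 CPM in P1 members and 485 in P7 members, and Epyc, an extracellular matrix proteoglycan, at 2.23 and 401. Both were also higher at P7 in the barcodes outside the rule, Pnlip at 31.3 and 106 CPM and Epyc at 37.8 and 91.9. Of the 581 Epyc UMIs of P7 members 565 came from 1 barcode. At P7 itself 38 of 3883 genes (0.979%) were enriched in members, and 30 of 3793 (0.791%) without the single barcode.

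**Figure D5:**
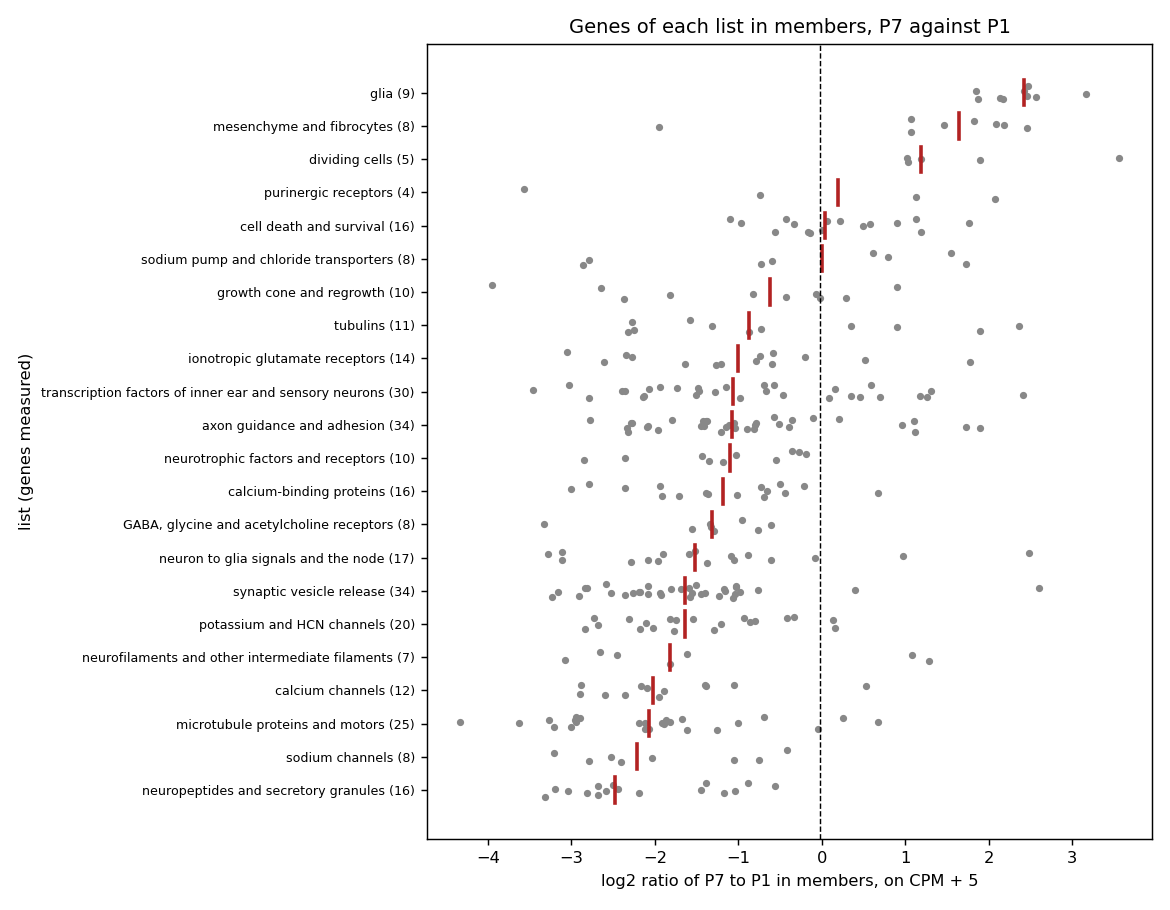
Each grey point is a measured gene of a list, placed by its log2 ratio of P7 to P1 in members on CPM plus 5, with the list median in red and the median of all genes (-0.03) dashed. Granule, sodium channel and microtubule lists lie lowest (-2.48, -2.22 and -2.07), cell death genes lie at 0.03, and the glial list lies at 2.42.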

How the data were processed

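Tissue pools of both ages, P1 and P7, gave 1 library each. The raw UMI counts per gene and barcode were used as the authors deposited them. The submitters' processing notes name bcl2fastq, Cell Ranger and Seurat 3.1.1, and the matrix header gives version 3.1.0. The genome build is rn6. The authors' limit of 5000 genes was an alternative here.

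Counts were summed over members per library (numpy 2.4.6, scipy 1.17.1) and scaled to CPM, as defined above. Folds were log2 of CPM plus 5, over genes with at least 50 UMIs in the groups compared. Counts and shares have exact Poisson and Clopper-Pearson 95% intervals. Members were clustered with scanpy 1.11.5 (10000 UMIs per barcode, 1000 variable genes, 15 components, 15 neighbours, Leiden resolution 0.6). The variable genes were picked without the cell type lists, mitochondrial genes and haemoglobin symbols. Macrophage barcodes held 3 or more of 6 macrophage genes and fewer than 2 rule genes. Scripts were tested on simulated data. The members and lists were chosen with earlier results of these data known, and cluster names were given after the clusters were seen. Named genes are the rule genes, the cell type lists, the functional list genes with the largest folds (4 each way) or levels (3), the 15 with the largest folds outside the lists and 10 leading genes per cluster. Cplx1, Kif5a and Sncb fall outside this and were chosen after their values were seen. Genes of a list without a matching symbol were not analysed here. Doublets were kept. Some genes are not reported here.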

Additional observations from a re-analysis of the deposited data

How the results depend on the processing

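No paired analysis was possible because each age has 1 library. The share of members at P1 was 7.21% with at least 3 of the 6 genes, 4.19% with 5, 3.78% with all 6, 3.55% under 5000 genes, 2.03% under 10% mitochondrial UMIs, 2.11% without members holding glial UMIs, 4.23% with barcodes thinned first and 3.62% with at least 100 UMIs of the 6 genes. At P7 it was 1.69% with at least 3 genes, 0.419% with 5, 0.0711% with 6, 0.111% without glial members, 0.332% when thinned and 0.00790% with 100 UMIs. The log2 ratio of shares was -3.32 with 5 genes, -5.73 with 6, -1.85 under 5000 genes, -1.18 under 10% mitochondrial UMIs, -4.26 without glial members, -3.67 when thinned and -8.84 with 100 UMIs. The cause of these moves was not tested.

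Genes higher at P7 numbered 602 with members thinned, 572 with a pseudocount of 20 and 813 with a minimum of 200 UMIs, and those lower numbered 627 with a pseudocount of 20, where fewer genes could pass. Without the single P7 barcode 1260 were higher and 1490 lower. P7 members fell into 3 clusters at resolution 0.3. Thinned to 1500 UMIs, the share with Pvalb was 68.4% at P1 and 40.5% at P7. Among list medians and single genes, 1045 values stayed near the main value, by a shift under 1 on the log2 scale, 108 moved and 4 reversed. A reversal was counted only for main values of at least 1 in size, so smaller values could change sign uncounted. The reversed ones were Mbp at -1.65 without glial members, and Snap25 at 0.19, Nefh at 0.15 and Slc17a6 at 1.34 in the spiral ganglion neuron-like clusters with the mean of each cell's CPM. At P7 that is cluster 4, which holds the single barcode. With the UMIs of these clusters pooled, Snap25, Nefh and Slc17a6 did not reverse. Depth limited the P7 values: 3 UMIs were worth 2.07 CPM in the summed P7 members.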
